A study of Drosophila melanogaster with 6 samples.

Results

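The odorant-binding protein (Obp) genes of *Drosophila melanogaster* were examined in bulk RNA sequencing of the larval central nervous system (CNS). The members were all genes of the deposited comparison table whose symbol is Obp followed by a digit, 31 of 13416 genes, and all 31 are annotated as protein coding. The study compared w1118 controls with homozygous Alk-YS third-instar larvae. Alk-YS larvae carry an edit of the endogenous *Alk* locus, which encodes a receptor tyrosine kinase, that replaces 1 kinase-domain tyrosine with serine and was described by the study as activating. No driver or transgene restricts the altered receptor to a cell type. The study's methods name a w1118 stock with a Cas9 transgene as the wild-type control, while the labels of these libraries give w1118 alone. Each group held 3 biological replicates, each a pool of CNS from 40 to 45 untreated larvae, and neither sex nor age in hours is labelled.

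Obp proteins are small, secreted and rich in cysteines, with a hydrophobic pocket that takes up odorants, pheromones, fatty acids and other small lipophilic ligands. The best known members are secreted by support cells into the fluid around the dendrites of olfactory and taste neurons, where they carry or buffer ligands for the receptors. Other members are made outside the sense organs, among them glia, fat body and reproductive glands. *Obp44a* is known as a secreted fatty-acid-binding protein of CNS glia.

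Between 18770029 and 22333967 reads per library were assigned to genes. Levels are given as FPKM (fragments scaled to gene length and to library size) where genes are compared with each other, and as normalized counts (reads divided by the library's size factor) where libraries are compared. The neuron marker *elav* had at least 15470 reads and the glia marker *repo* at least 1475 reads in every library. Larval fat body RNA was present in all libraries: the 7 fat body markers summed to 18059 to 137688 normalized counts in control and to 6369 to 40008 in Alk-YS, and none of the 7 was at 0. In bulk samples fewer cells of a type and less RNA per cell cannot be told apart. Intervals on shares of reads cover counting error only.

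Expression was concentrated in a few members. A mean of at least 1 FPKM over the 6 libraries was found for 9 of the 31 genes, and 3 of these exceeded 100 FPKM. The 9 were *Obp44a*, *Obp99a*, *Obp99b*, *Obp99c*, *Obp56a*, *Obp83g*, *Obp56d*, *Obp83ef* and *Obp49a*. Of these, *Obp56d*, *Obp83ef* and *Obp49a* were under 1 FPKM in some libraries. Their highest values were 21.5 FPKM (control replicate 3), 5.45 (control replicate 2) and 2.70 (Alk-YS replicate 3). In any 1 library, 6 to 10 members reached 1 FPKM. More than 3 reads in all 6 libraries, the limit that a count of 0 allows, were found for 10 members. Another 14 passed that limit in 1 to 5 libraries and 7 in none. Between 13 and 18 members passed it in any 1 library. The whole family took 0.646%, 0.817% and 0.638% of the reads in control replicates 1 to 3, and 0.635%, 0.692% and 0.691% in Alk-YS replicates 1 to 3. These shares had 95% Wilson intervals at most 0.00757 percentage points wide. *Obp44a* supplied 80.8% to 86.2% of the family's reads in the 6 libraries.

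**Figure D1:**
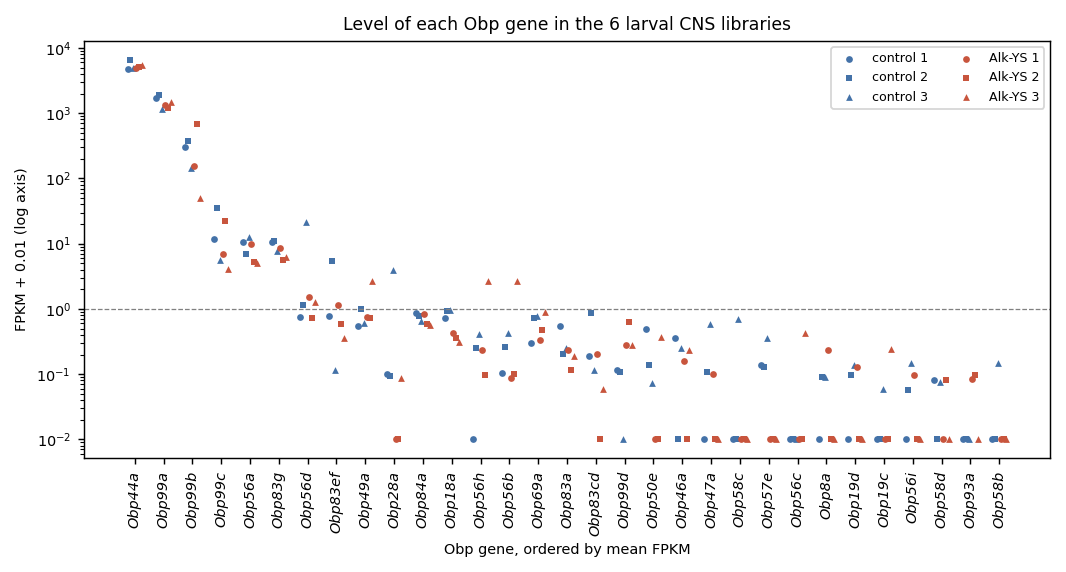
FPKM of the 31 Obp genes in each of the 6 libraries, with 0.01 added on a log axis so that 0 is drawn at 0.01; blue points are control, red points are Alk-YS, and the dashed line marks 1 FPKM. *Obp44a*, *Obp99a* and *Obp99b* stand above all other members, with means of 5311, 1465 and 286 FPKM, and most members lie below 1 FPKM.

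*Obp44a* (FBgn0033268; 2R, 8134170 to 8135315, minus strand, BDGP6) is annotated with up to 2 exons and 2 transcripts. Its level was 4815, 6595 and 4856 FPKM in control replicates 1 to 3 and 4971, 5160 and 5466 FPKM in Alk-YS replicates 1 to 3. In all 6 libraries it ranked at place 2 by FPKM among genes of the nuclear genome, and the gene with the highest mean was *RpL41*, a ribosomal protein gene at 8054 FPKM. It took 0.522% to 0.679% of the reads in control and 0.541% to 0.595% in Alk-YS.

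Its normalized counts were 107818, 147509 and 108574 in control and 111333, 115202 and 122183 in Alk-YS. Control replicate 2 was the highest of the 6, and the Alk-YS values lay inside the control range. The means were 121300 ± 22700.5 in control and 116239 ± 5499 in Alk-YS (SD, n = 3 each). This lay within the replicate spread (log2 fold change -0.05, SE 0.15, limma adjusted p = 0.951), and its 95% interval ran from 0.756-fold to 1.24-fold. Changes inside that interval remained compatible with these values. The residual SD of *Obp44a* between replicates, 0.19 on the log2 scale, was near the median of all genes tested (0.18).

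Of the 1076 exon bases of *Obp44a*, 205 are shared with *Pabp2*, a gene of the opposite strand. The strand setting of the counting is not given in the sources used here. *Pabp2* had a mean of 8629 normalized counts and *Obp44a* 118770. The effect of the shared bases on either count was not tested. The 9 glia markers found summed to 18392, 19358 and 21235 normalized counts in control and 17375, 22106 and 18869 in Alk-YS. The groups overlapped on this sum, as they did for *Obp44a*. The library orders differed, with this sum highest in Alk-YS replicate 2 and *Obp44a* highest in control replicate 2. Of the 9 markers, 0 passed an adjusted p under 0.05 in limma, with 1 at an unadjusted p under 0.05. The most abundant of them were *nrv2* (4304) and *Gs2* (3300.5 normalized counts), which encode a sodium pump subunit and glutamine synthetase.

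The 4 *Obp99* genes lie within 29671657 to 29716896 on 3R and differ widely in level. *Obp99a* (FBgn0039678; 29671657 to 29672334, plus strand) was the second most abundant member, at 1689, 1916 and 1177 FPKM in control and 1341, 1206 and 1460 FPKM in Alk-YS. Its place by FPKM among nuclear genes was between 59 and 83. Normalized counts were 20218 ± 4809 in control and 16931 ± 1620 in Alk-YS (SD, n = 3 each). Control replicates 1 and 2 were above all Alk-YS libraries and control replicate 3, at 14914, was below them all. This difference did not pass the test (log2 fold change -0.23, SE 0.18, limma adjusted p = 0.683), with a 95% interval from 0.640-fold to 1.14-fold. Leaving out 1 library moved the log2 fold change between -0.08 without control replicate 2 (limma adjusted p = 0.952) and -0.44 without control replicate 3 (adjusted p = 0.0976). DESeq2 run on the recovered reads of every gene, also without that library, called *Obp99a* (-0.43, adjusted p = 0.00455). This fit called 852 of all 13416 genes and was added after seeing the data.

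*Obp99b* (FBgn0039685; 29716254 to 29716896, minus strand) is known in adult males as a fat body transcript under control of the sex-determination pathway. It had 3750, 4622 and 1810 normalized counts in control and 1934, 8427 and 622.3 in Alk-YS. Alk-YS replicate 2 was the highest and Alk-YS replicate 3 the lowest of all 6, which is a 13.5-fold span inside 1 genotype. The arithmetic mean was higher in Alk-YS (3661 ± 4179 against 3394 ± 1440, SD, n = 3 each), while the mean on the log2 scale was lower (log2 fold change -0.54, SE 0.84, limma adjusted p = 0.870). The 95% interval spanned 0.180-fold to 2.62-fold, so neither direction was resolved.

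*Obp99c* (FBgn0039682; 29685736 to 29689311, minus strand) had 161.8, 492.05 and 76.8 normalized counts in control and 94.97, 309.6 and 55.8 in Alk-YS. The libraries with the most *Obp99c*, control replicate 2 and Alk-YS replicate 2, were also the highest of their groups for *Obp99b*, and Alk-YS replicate 3 was lowest for both. Control and Alk-YS overlapped (log2 fold change -0.63, SE 0.77, limma adjusted p = 0.828). The residual SDs of *Obp99b* (1.42) and *Obp99c* (1.30) were larger than those of 97.8% and 97.6% of the genes tested.

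The summed fat body markers were 62717, 137688 and 18059 normalized counts in control and 17877, 40008 and 6369 in Alk-YS. Within each genotype, replicate 2 was highest and replicate 3 lowest for the marker sum, for *Obp99b* and for *Obp99c*. The same held for the single markers *Fbp1*, *Lsp1beta*, *Lsp1gamma*, *Lsp2* and *Rfabg*. It did not hold for *Lsp1alpha*, which was highest in control replicate 1 (4912) and lowest in Alk-YS replicate 1 (40.6). Nor did it hold for *Fbp2* in Alk-YS, at 41.5, 52.3 and 57.7 in replicates 1 to 3. The most abundant markers were *Fbp1*, a storage protein receptor (mean 14095), and *Lsp1gamma*, a storage protein (12370), and *Fbp2* was the 1 marker past the threshold (log2 fold change -4.85, limma adjusted p = 0.0129). The part of fat body RNA in the *Obp99b* and *Obp99c* values was not tested. *Obp99d*, the neighbour of *Obp99b* in its cluster, reached at most 6.41 normalized counts.

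**Figure D2:**
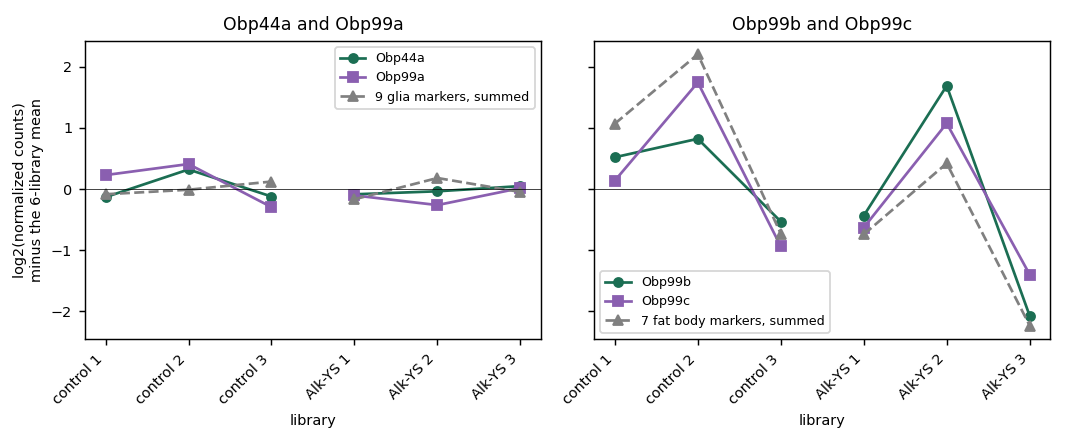
Normalized counts on the log2 scale minus the mean over the 6 libraries, for *Obp44a* and *Obp99a* with the sum of 9 glia markers (left) and for *Obp99b* and *Obp99c* with the sum of 7 fat body markers (right); lines only join the libraries of a genotype, which have no order. *Obp44a* stays within a narrow band, while *Obp99b* spans 622.3 to 8427 normalized counts and is lowest, like *Obp99c* and the fat body sum, in Alk-YS replicate 3.

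Neighbouring members at most 20 kb apart formed 6 clusters with 16 members in all. In the cluster of *Obp56a*, *Obp56b*, *Obp56c* and *Obp56d* (2R, 19697723 to 19703915) mean levels ran from 0.069 to 8.38 FPKM. In the cluster of *Obp83cd*, *Obp83ef* and *Obp83g* (3R, 6108134 to 6112302) they ran from 0.231 to 8.29 FPKM. The clusters of *Obp19c* and *Obp19d* (0.046 and 0.056 FPKM) and of *Obp58b*, *Obp58c* and *Obp58d* (0.023 to 0.114 FPKM) were low throughout.

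*Obp83g* (FBgn0046875; 3R, 6111671 to 6112302, minus strand) had 124.3, 130.01 and 92.5 normalized counts in control and 101.4, 67.3 and 72.6 in Alk-YS. Control replicate 3 fell below Alk-YS replicate 1, and the other control libraries lay above all of Alk-YS. On the log2 scale the difference was -0.53 (SE 0.24). Its unadjusted limma p, 0.0584, was the lowest of the 10 members tested, and became 0.392 after adjustment. The exact two-sided permutation p was 0.2, where 3 libraries against 3 can reach no less than 0.1.

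*Obp56a* (FBgn0034468; 2R, 19697723 to 19698508, plus strand) had 119.9, 78.0 and 141.7 normalized counts in control and 114.3, 59.8 and 57.7 in Alk-YS. The groups overlapped through Alk-YS replicate 1 and control replicate 2. The difference did not pass the test (log2 fold change -0.58, SE 0.34, limma adjusted p = 0.547).

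For 15 of the 31 genes, more than 50% of the normalized counts came from 1 library. Of the members with a mean under 50 normalized counts, 8 were highest in control replicate 3 and 6 in Alk-YS replicate 3. Members with a mean under 50 that are named here were chosen after their values were seen. *Obp56d*, with a mean of 85.7 normalized counts, was the most abundant member with most of its counts in 1 library (FBgn0034470; 2R, 19702924 to 19703915). It had 14.3, 22.0 and 411.4 normalized counts in control and 28.6, 13.9 and 24.2 in Alk-YS. Its log2 fold change was -1.24 with all libraries (limma adjusted p = 0.740) and 0.25 without control replicate 3. The ratio of arithmetic means was 0.149, and on the recovered reads edgeR gave -2.74 and DESeq2 -2.75 on the log2 scale.

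*Obp28a* (FBgn0011283; 2L, 7496791 to 7497365), a member known from the antenna, had 1, 1 and 48 reads in control and 0, 0 and 1 in Alk-YS. *Obp58c* had 10 reads, all in control replicate 3. *Obp56h*, *Obp56b* and *Obp56c* were instead highest in Alk-YS replicate 3. *Obp56h* had 0, 3.00 and 4.92 normalized counts in control and 2.77, 1.07 and 32.6 in Alk-YS, and *Obp56b* had 31.6 in that library and at most 4.92 in any other. *Obp49a*, known for the suppression of sweet taste by bitter compounds, had 43.7 normalized counts there against 8.80 to 16.0 in the other 5.

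Peritrophic matrix and mucin transcripts were also present in some libraries only. The 6 midgut and peritrophic matrix markers found summed to 15.4, 35.0 and 24429 normalized counts in control and 6919, 16.0 and 5870 in Alk-YS. In the high libraries this sum came almost wholly from *Peritrophin-15a*, *Muc96D* and *Muc26B* (means 2430, 2992 and 776.9). The other markers, *Jon65Aiii*, *alphaTry* and *Amy-p*, had means of 7.09, 0.814 and 7.61. Of these, *alphaTry* was highest in control replicate 3, but *Jon65Aiii* and *Amy-p* were highest in control replicate 2. Alk-YS replicate 1 was high for the peritrophic matrix and mucin markers but was not the highest library of *Obp28a*, *Obp56d*, *Obp56h* or *Obp56b*. The 7 markers of trachea and epidermis summed to between 8637 and 11205 in every library. The part of such tissue in these Obp values was not tested.

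**Figure D3:**
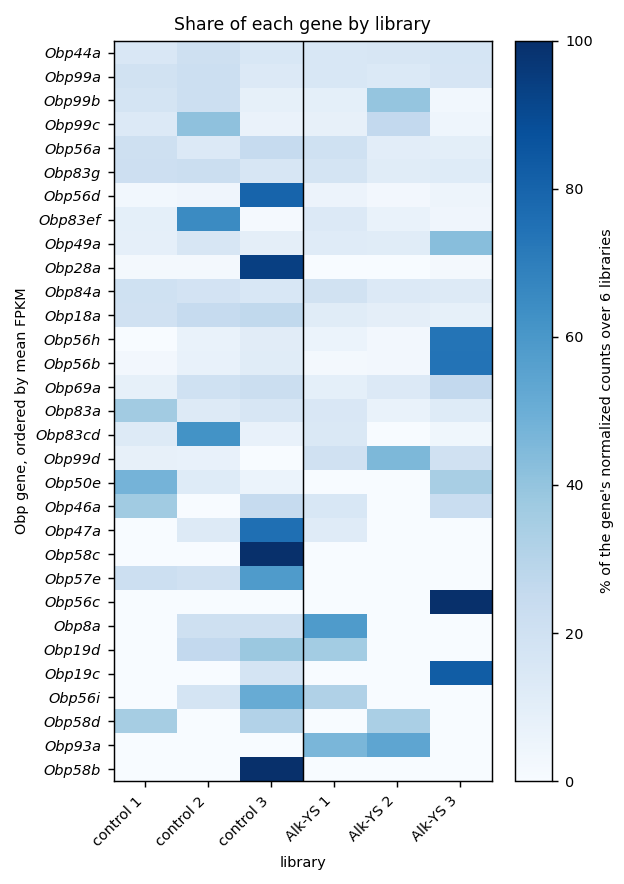
Share of each gene's normalized counts found in each library, in percent of its sum over the 6 libraries; rows are the 31 Obp genes in order of mean FPKM and the line separates control (left) from Alk-YS (right). The rows of *Obp44a* and *Obp99a* are nearly even, while *Obp56d* (80.0%) and *Obp28a* (94.0%) are dark in control replicate 3 and *Obp56h* (73.5%) and *Obp56b* (74.2%) in Alk-YS replicate 3.

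*Obp83ef* and *Obp83cd*, which overlap tail to tail, were both highest in control replicate 2. *Obp83ef* (FBgn0046876) had 14.3, 102.0 and 1.97 normalized counts in control and 21.2, 10.7 and 6.51 in Alk-YS, and *Obp83cd* had 16.0 in control replicate 2 and at most 3.69 elsewhere. They share 92 exon bases on opposite strands, and without strand the reads of this stretch cannot be assigned to either gene. The log2 fold change of *Obp83ef* was -0.42 in limma (adjusted p = 0.938) and -1.63 in both edgeR and DESeq2.

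*Obp83a* and *Obp69a*, antennal members, had means of 0.247 and 0.579 FPKM. *Obp84a*, another sensillar member, had 14.3, 13.0 and 10.8 normalized counts in control and 13.8, 9.61 and 9.30 in Alk-YS. However, 663 of the 817 exon bases of *Obp84a* are shared with *Dtwd2* on the opposite strand, which had a mean of 94.1 normalized counts. *Obp57e*, which acts in taste of plant acids, had 5 reads over all libraries. *Obp8a* and *Obp56i*, known as seminal fluid proteins, had 5 and 6. The 8 members not described elsewhere, *Obp19c*, *Obp19d*, *Obp46a*, *Obp47a*, *Obp50e*, *Obp58b*, *Obp58d* and *Obp93a*, had means of at most 0.173 FPKM. Of the exon bases of *Obp93a*, 83.2% are shared with *CG5793* on the opposite strand.

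The reference annotation of BDGP6 holds 51 genes with such a symbol, and all 31 members had the same coordinates in it. The other 20 were found only in the deposited FPKM table. Of these, 16 were listed at 0 in all 6 libraries, including *Obp83b*, *Obp59a* and *Obp57d*, and the remaining 4 (*Obp51a*, *Obp56g*, *Obp19b* and *Obp57b*) reached at most 0.111 FPKM. *lush*, an Obp gene with another symbol that is needed to sense a male pheromone, had 2 reads, both in control replicate 3.

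The comparison asks whether the altered receptor changes the level of any Obp transcript. A mean of at least 10 normalized counts was reached by 10 of the 31 members, and the largest mean among the 21 left out was 9.37. Of these 10, 0 passed an adjusted p under 0.05 in limma, against 2.97% of the 9668 genes tested (1.26% higher and 1.71% lower in Alk-YS). At an unadjusted p under 0.05 the count in this limma fit was also 0, against 13.8% of all genes tested. It reached 1 to 3 in some other fits. Run on the recovered reads, edgeR called 0 of the 10 (2.7% of genes) and DESeq2 0 (6.33%), with no adjusted p for *Obp56d*. The groups of 3 libraries overlapped for all 10, while they did not overlap for 19.5% of the genes tested.

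The log2 fold change was negative for 9 of the 10 and positive for *Obp49a* (0.68, standard error 0.60). The median was -0.47, against 0.01 over all genes tested, of which 48.4% were negative. The median of the 10 was -0.14 without control replicate 2 and -0.11 without Alk-YS replicate 3. The narrowest intervals were those of *Obp44a* and *Obp99a*. Muscle markers differed between the genotypes: their sum over 7 genes was 2972 to 3992 normalized counts in control and 1653 to 2320 in Alk-YS, and *Mlc1* and *Mlc2*, myosin light chain genes, were lower (limma adjusted p = 0.0297 and 0.00731). The 5 neuroblast markers were all higher in Alk-YS at an unadjusted p under 0.05 in limma, with 0 called after adjustment, a median log2 fold change of 0.49 and sums of 5023 to 7391 in control and 7386 to 9580 in Alk-YS. The hemocyte gene *NimC1* (log2 fold change -3.49) and the salivary glue gene *Sgs4* (-3.14) were the calls in their lists. The median log2 fold changes were -0.34 over the 6 hemocyte genes and 0.53 over the 5 salivary gland genes tested. In these lists *eater*, *Sgs3*, *Sgs5* and *Sgs7* had positive log2 fold changes, and *Hml*, *Pxn*, *srp*, *He* and *Sgs8* negative ones. In the neuron, imaginal disc, trachea, ring gland and midgut lists limma called 0 genes. The part of these tissues in the Obp values was not tested.

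**Figure D4:**
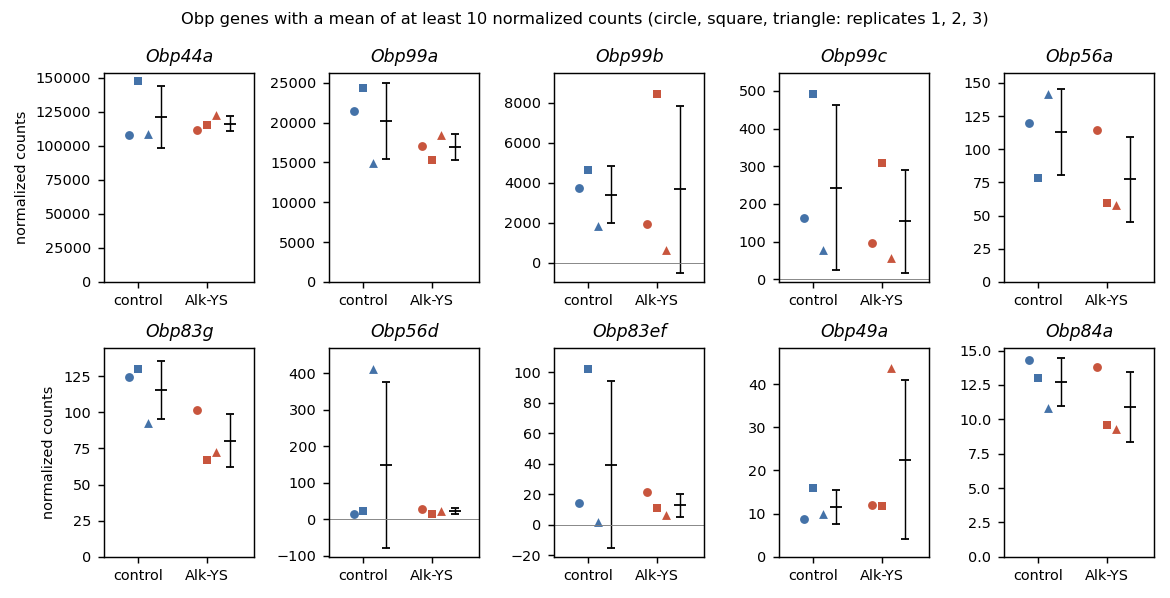
Normalized counts of the 10 Obp genes tested, 1 panel per gene, with control libraries in blue and Alk-YS libraries in red; bars to the right of the points are the mean and SD (n = 3). The groups overlap in every panel, and single high libraries stand out for *Obp56d* (411.4, control replicate 3), *Obp83ef* (102.0, control replicate 2) and *Obp49a* (43.7, Alk-YS replicate 3).

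**Figure D5:**
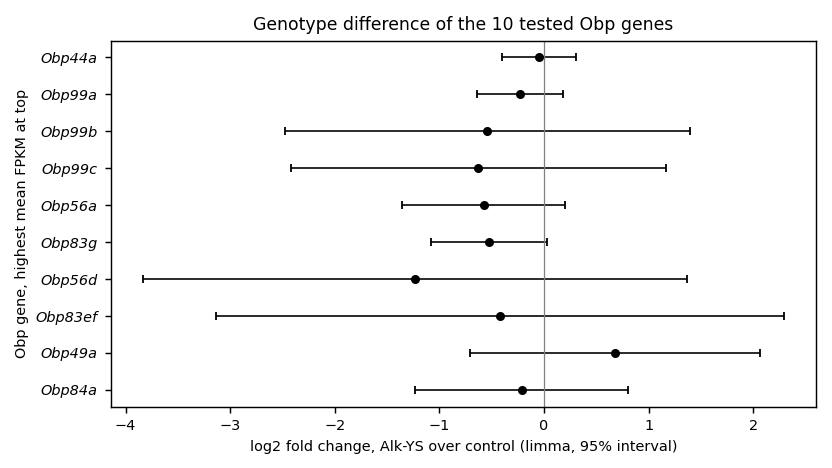
Log2 fold change of Alk-YS over control with its 95% interval from limma for the 10 Obp genes tested, ordered by mean FPKM with the highest at the top. All intervals cross 0, and the narrowest is that of *Obp44a* (-0.40 to 0.31) and the widest that of *Obp83ef* (-3.14 to 2.30).

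Of all 31 Obp genes, 4 (12.9%) had groups that did not overlap, against 17.4% of all 13416 genes. These 4 were all among the 21 members below the minimum. They were *Obp18a*, *Obp28a*, *Obp57e* and *Obp99d*. *Obp18a* (FBgn0030985; X, 19135081 to 19135868) was the 1 with more than 3 reads in all 6 libraries, at 11.004, 14.001 and 14.8 normalized counts in control and 6.45, 5.34 and 4.65 in Alk-YS. These 4 were singled out after their values were seen. Without a minimum, limma gave *Obp18a* an adjusted p of 0.293 and called 2.33% of all genes. *Obp28a* was called when DESeq2 was run on all 13416 genes (log2 fold change -5.57, adjusted p = 0.0493), which called 4.69% of them. Limma without a minimum gave *Obp28a* an adjusted p of 0.504, and edgeR, which called 2.03% of all genes, gave 0.245. With control replicate 3 left out the 2 remaining control libraries held 1 read each, and DESeq2 gave an unadjusted p of 0.655.

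Of 113 other chemosensory genes in the table (odorant, gustatory and ionotropic receptors, CheA and CheB proteins, CSP-type carriers and related proteins), 21 were tested. In limma 0 of them were higher and 4 lower in Alk-YS at an adjusted p under 0.05, against 1.26% and 1.71% of all genes tested, and their median log2 fold change was -0.42. *Phk-3* and *PebIII*, which encode small secreted carriers of the separate CSP family, were 2 of these. *Phk-3* had 955.1, 1115 and 847.5 normalized counts in control and 342.1, 253.0 and 547.8 in Alk-YS (log2 fold change -1.41, limma adjusted p = 0.031). *PebIII* had 255.3, 354.0 and 345.5 in control and 65.5, 74.7 and 167.4 in Alk-YS (log2 fold change -1.74, limma adjusted p = 0.0427). The groups did not overlap for either gene.

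The others were *CheB98a*, at 40.7, 36.0 and 30.5 normalized counts in control and 0.922, 6.41 and 0 in Alk-YS, and the odorant receptor gene *Or67b*, at 15.4, 20.002 and 24.6 in control and 0.922, 0 and 0 in Alk-YS. Both passed the minimum mean of 10 normalized counts, taken over all 6 libraries, through their control libraries. *Or65a*, at 0, 1.00 and 0 in control and 16.6, 17.1 and 17.7 in Alk-YS, fell below this minimum and was not tested. So did *Or71a*, at 13.2, 12.0 and 12.8 in control and 1.84, 0 and 0 in Alk-YS. The counts by direction cover only genes above the minimum. Leaving out 1 library ended the call of *Or67b* in 6 of 6 fits, of *PebIII* and *CheB98a* in 5, and of *Phk-3* in 4. Their log2 fold changes stayed negative in these fits, the smallest being -1.16 for *Phk-3*. With all libraries, the call was also lost for *PebIII* (adjusted p = 0.074) and *CheB98a* (0.0665) in edgeR, and without the trend for *PebIII* (0.0903), *Phk-3* (0.0805) and *CheB98a* (0.0559). A pseudocount of 0.1 ended it for *CheB98a* (0.113) and *Or67b* (0.0701), and the replicate block for *Or67b* (0.0522). *CG30172*, a further CSP gene, was the most abundant of these genes, with a mean of 2785 normalized counts (log2 fold change -0.18, limma adjusted p = 0.830). *Orco*, the co-receptor of odorant receptors, had 4 to 28 reads per library (log2 fold change 1.15, limma adjusted p = 0.482). Counts by family were 1 lower of 5 tested odorant receptors, 0 of 1 gustatory receptor, 0 of 7 ionotropic receptors and 1 lower of 2 CheA and CheB genes.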

How the data were processed

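RNA of dissected third-instar CNS was sequenced as paired-end Illumina reads. Per the labels' processing notes and the study's methods, the authors aligned reads with HISAT2 2.0.5 to the Ensembl BDGP6 assembly, counted genes with featureCounts 1.5.0-p3 and used DESeq2 1.20.0. The strand setting is not given in the sources used here. The deposited signal values of the comparison table are read counts divided by a size factor per library. The authors' FPKM values cover 17558 genes, 31 Obp members included. Its columns with the authors' own log2 fold change, p-value and q-value were not used. Control replicates had 18770029, 21712148 and 20082673 reads in genes and Alk-YS replicates 22333967, 18869988 and 22059410.

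Whole reads were recovered by dividing by each library's smallest value above 0, and 100% of the values came out whole within 0.001 reads. An automatic check of whole reads covered 5 libraries and not control replicate 2, whose size factor is 1.00. As the deposited values are normalized, count tests were alternatives. The test was limma 3.58.1 in R 4.3.3 (mean-variance trend, two-sided), with a pseudocount of 1 before log2 and a minimum mean of 10 normalized counts, Benjamini-Hochberg adjusted over all 9668 genes. Fold changes on that scale understate changes of low genes. The scripts were tested on simulated counts. Alternatives were edgeR 4.0.16 and DESeq2 1.42.0 on recovered reads (261 and 612 genes called), TMM scaling, pseudocounts of 0.1 and 5, no minimum, a minimum of 50, a replicate block, no trend, the FPKM table and leaving out each library. P-values measure the spread between these biological replicates. Members, gene lists and tests were chosen with earlier results of these data known. By rule, values per library were given for members with a mean of at least 50, an adjusted p under 0.05, or a mean of at least 10 and groups without overlap, and other genes named were *lush*, *Orco* and, from a list, those with the highest means or an adjusted p under 0.05. Lower members with such values, and further list genes that were named, were chosen after these were seen. Count fits of all genes were added after seeing the data. List symbols without a match in the table were skipped. Sequences were not used here.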

Additional observations from a re-analysis of the deposited data

How the results depend on the processing

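The count of Obp genes called was 0 with edgeR, DESeq2 on the filtered genes, TMM scaling, other pseudocounts, other minimums, no trend, the FPKM table and all 6 fits that left out a library. It was 1 in DESeq2 on recovered reads of all 13416 genes (629 genes called in all, *Obp28a* among them). It was also 1 in the same fit with control replicate 3 left out (852 of 13416 genes, *Obp99a* among them). Both fits were chosen after seeing the data. DESeq2 on the filtered genes called 612 genes, against 287 in limma, and the cause of the larger count was not tested. Leaving out a library gave 105 to 336 genes. At an unadjusted p under 0.05, the count among the 10 members was 1 with a replicate block, no trend or the FPKM table. It was 0 to 2 when a library was left out. In the fits of all genes it was 1 with edgeR and 3 with DESeq2 without control replicate 3. Of 10 members, 5 changed sign under some setting. For *Obp99b* the log2 fold change was 0.094 with edgeR and 0.11 with DESeq2 on the filtered genes, 0.092 and 0.11 on all genes, beside a ratio of arithmetic means of 1.08, and between -1.52 and 0.36 when a library was left out. The ranges when a library was left out were -0.12 to 0.10 for *Obp44a*, -0.44 to -0.083 for *Obp99a*, -1.32 to 0.083 for *Obp99c*, -2.13 to 0.25 for *Obp56d* and -1.67 to 0.89 for *Obp83ef*. *Obp56d* was also reversed, at 0.29, in DESeq2 without control replicate 3. Same-numbered libraries had correlations of deviations of -0.12, 0.35 and 0.41, and those with different numbers ran from -0.48 to 0.32. The deviations of 3 libraries sum to 0 in each group, so these values cannot decide whether the numbers mark pairs. The main fit did not pair them. A replicate block gave 284 genes and 0 Obp genes. It moved the limma adjusted p of *Obp99c* from 0.828 to 0.202. The minimum mean of 50 left 7 members, so *Obp83ef*, *Obp49a* and *Obp84a* had no value there. The 21 members under a mean of 10 normalized counts had no test in limma with the minimum.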
